A study of Chlamydomonas reinhardtii with 18 samples.

Results

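The genes described here are 59 nuclear genes of the green alga *Chlamydomonas reinhardtii* whose mRNA was low after 24 h in the dark and lower still after 24 h in the dark with nitrite. The samples were cells of strain 6145c kept in darkness at 25 °C. There were 2 arms of 3 flasks each. The nitrite arm received 10 mM nitrite, and the control arm received none. Polyadenylated RNA was collected from all 6 flasks at 15 min, 3 h and 24 h after the addition, which gave 6 groups of 3 libraries, listed here as nitrite 15 min, nitrite 3 h, nitrite 24 h, control 15 min, control 3 h and control 24 h. Darkness and strain were shared by all groups, and the control flasks were dark throughout, so no group was kept in the light. The series title names nitrous oxide biosynthesis as its subject.

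The 59 genes were selected on measured values, in CPM, the number of reads on a gene scaled to a common library size. Of the 17766 features in the deposited tables, 13564 had enough reads to be tested, and 8229 of these averaged at least 5 CPM in control 15 min. Of those, 747 had a control 24 h mean of at most 0.4 times the control 15 min mean, after 0.5 CPM was added to each mean. A gene was a member where its nitrite 24 h mean was also at most 0.4 times its control 24 h mean. The 59 members are 7.90% of the 747 genes that were low in the dark control and 0.435% of the features tested. The other 688 of the 747 are called the remaining dark-lowered genes. Because control 15 min, control 24 h and nitrite 24 h chose the members, every difference among these 3 groups is given as a description with no test. The nitrite 15 min, nitrite 3 h and control 3 h libraries took no part in the choice, although they came from the same flasks.

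As background, *Chlamydomonas* is a unicellular alga that lives by photosynthesis in the light and by respiration of stored or supplied carbon in the dark. Nitrite is the intermediate of nitrate assimilation and is reduced to ammonium in the chloroplast. When nitrite is in excess it is also a source of nitric oxide, a reactive signalling molecule that algae can reduce to nitrous oxide. The level of an mRNA depends on both its synthesis and its decay, and a library measures only its share of all mRNA. In bulk cultures, fewer cells that carry a transcript and less of the transcript per cell cannot be told apart. The files and the gene table used here give identifiers and positions (RefSeq gene table, assembly Chlamydomonas_reinhardtii_v5.5) but no names or products for the 59 members, so no function is given. The members were matched to that table by identifier, all 59 of them.

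Depth was even, with 6695500 to 8469882 reads on features per library, and no 2 libraries of a group agreed within sampling noise. There were 3 libraries that stood apart. For the members, the library labelled nitrite 15 min number 2 was nearer to the other nitrite 3 h libraries than to the other nitrite 15 min libraries in 52 of 59 genes. The library labelled nitrite 3 h number 2 was nearer to the other nitrite 15 min libraries in 39 of 59. These counts cover the members only, with no share over all features beside them. They therefore do not show whether the members differ from other genes in this. The library labelled control 3 h number 3 had 36.5% reads with several alignments, against 16.7% to 21.6% in the other 17 libraries, and its scaling factor of 0.604 was the lowest of all. Over all features, the deviations from the group means of the 2 libraries labelled number 2 correlated at -0.78 with each other, and that of nitrite 3 h number 2 correlated at 0.59 and 0.60 with the other nitrite 15 min libraries. Whether the labels of these 2 libraries were exchanged cannot be told from the files. An exchange would change every nitrite 15 min and nitrite 3 h group value given here, and the count of members called between them. All 3 were kept under their labels, and the edgeR comparison of the arms at 3 h is given with and without them. None of the 3 belongs to the groups that chose the members.

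The summed level of the members was far higher at 15 min and 3 h than at 24 h in both arms. Summed over the 59 genes, the nitrite libraries held 3064, 2039 and 2812 CPM at 15 min, 2039.5, 2780.1 and 2125 CPM at 3 h, and 163, 153 and 160.1 CPM at 24 h. The control libraries held 2830.4, 2877 and 2769 CPM at 15 min, 2790.3, 3093 and 3047 CPM at 3 h, and 594, 559.6 and 516 CPM at 24 h. The 24 h libraries of both arms lay below every 15 min and 3 h library, and those of the nitrite arm lay below those of the control arm without overlap. The group means put nitrite 24 h at 28.5% of control 24 h and at 5.62% of control 15 min. Control 24 h was at 19.7% of control 15 min. The lowest sum among the nitrite libraries at 15 min and the highest at 3 h both came from the libraries labelled number 2, which stood apart. The gene Cre05.g238650 made up 20.6% of the control 15 min sum, so the sums weigh it heavily.

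**Figure D1:**
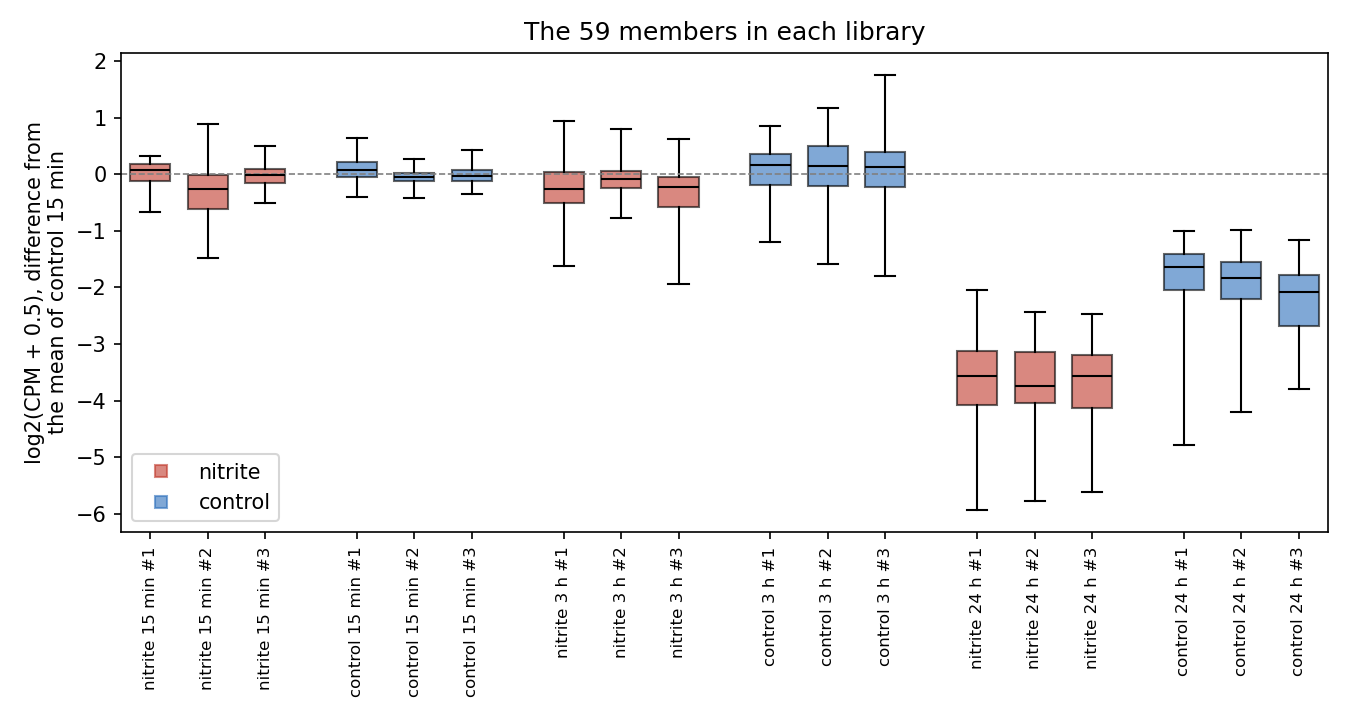
Log2 difference of each of the 59 members from its mean in control 15 min, as a box per library (box, quartiles; line, median; whiskers, lowest and highest member). The medians at 15 min and 3 h lie between -0.26 and 0.17 on the log2 scale, the nitrite 24 h medians between -3.74 and -3.56, and the control 24 h medians between -2.08 and -1.63.

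Taken gene by gene, the typical member showed the same picture. The median over members of the log2 difference from control 15 min was -3.56, -3.74 and -3.57 in the nitrite 24 h libraries, against -1.63, -1.83 and -2.08 in the control 24 h libraries. In nitrite 3 h it was -0.26, -0.09 and -0.23, against 0.17, 0.14 and 0.14 in control 3 h. In nitrite 15 min it was 0.08, -0.26 and -0.02, against 0.08, -0.06 and -0.04 in control 15 min itself. The TMM scaling places the centre of all features near 0 in every library by construction, so these differences are relative to the other mRNAs. By the ratios that chose them, the members had a median control 24 h level of 0.281 times control 15 min and a median nitrite 24 h level of 0.332 times control 24 h. The combined ratio of nitrite 24 h to control 15 min had a median of 0.0848, which is 11.8-fold down, and ran from 0.0216 to 0.156.

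The members spanned a wide range of read levels in control 15 min, with 8 above 100 CPM, 26 between 20 and 100 CPM and 25 between 5 and 20 CPM. CPM is not divided by gene length, so the order is one of reads and not of molecules. The member with the most reads was Cre05.g238650 (chromosome 5, 3034210 to 3039095). In the nitrite arm it had 648, 263 and 598 CPM at 15 min, 251, 603 and 300.3 CPM at 3 h and 8.97, 13.6 and 13.7 CPM at 24 h. In the control arm it had 505, 648 and 592 CPM at 15 min, 330.4, 422 and 502 CPM at 3 h and 20.5, 31.0 and 56.3 CPM at 24 h. Both 24 h groups were far below all other libraries and did not overlap each other, and at 15 min and 3 h the nitrite libraries labelled number 2 were the ones out of order. The second was Cre06.g278162 (chromosome 6, 3784323 to 3787464). Its nitrite libraries had 217, 112 and 185 CPM at 15 min, 135, 194 and 118 CPM at 3 h and 4.66, 3.07 and 3.46 CPM at 24 h. Its control libraries had 149, 191 and 180.4 CPM at 15 min, 163, 184 and 200.5 CPM at 3 h and 11.4, 10.3 and 11.99 CPM at 24 h. Every nitrite 24 h library was below every control 24 h library. At 3 h the 2 arms overlapped only through the library labelled nitrite 3 h number 2.

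The next 4 members by reads differed mainly in how much remained at 24 h in the dark alone. Cre03.g206600 (chromosome 3, 7333370 to 7341035) had 154, 92.7 and 139 CPM at 15 min, 88.8, 139.5 and 98.2 CPM at 3 h and 9.86, 14.1 and 9.92 CPM at 24 h in the nitrite arm. It had 169, 153 and 123 CPM at 15 min, 123, 144 and 125 CPM at 3 h and 28.9, 38.4 and 34.3 CPM at 24 h in the control arm. All nitrite 24 h values lay below the control 24 h values. Cre10.g441400 (chromosome 10, 3051210 to 3054279) had 157, 88.2 and 131 CPM at 15 min, 83.7, 126 and 88.2 CPM at 3 h and 4.30, 3.58 and 5.35 CPM at 24 h in the nitrite arm. Its control arm gave 142, 131 and 131 CPM at 15 min, 155, 171 and 125 CPM at 3 h and 27.0, 20.6 and 20.7 CPM at 24 h. This gene had one of the lowest nitrite 24 h levels relative to control 24 h, 0.211 times, and its dark ratio of 0.172 was below the members' median.

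Cre12.g483700 (chromosome 12, 55946 to 61637) kept the most of these 6 at 24 h. In the nitrite arm it had 127, 75.6 and 129.9 CPM at 15 min, 81.1, 111 and 90.3 CPM at 3 h and 13.8, 14.7 and 18.1 CPM at 24 h. In the control arm it had 137, 135 and 127 CPM at 15 min, 109, 126 and 132 CPM at 3 h and 43.8, 44.3 and 45.4 CPM at 24 h. Its control 24 h mean was 0.337 times its control 15 min mean, and its nitrite 24 h mean was 0.356 times that of control 24 h. Cre10.g442650 (chromosome 10, 3203161 to 3207958) had 136, 92.5 and 133 CPM at 15 min, 75.3, 133 and 90.01 CPM at 3 h and 1.97, 2.56 and 2.20 CPM at 24 h in the nitrite arm. It had 91.8, 108 and 135 CPM at 15 min, 120.1, 135 and 154 CPM at 3 h and 9.54, 7.21 and 8.58 CPM at 24 h in the control arm. Here the dark ratio was 0.0797, so that most of the difference between control 15 min and nitrite 24 h was already present in the dark control.

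**Figure D2:**
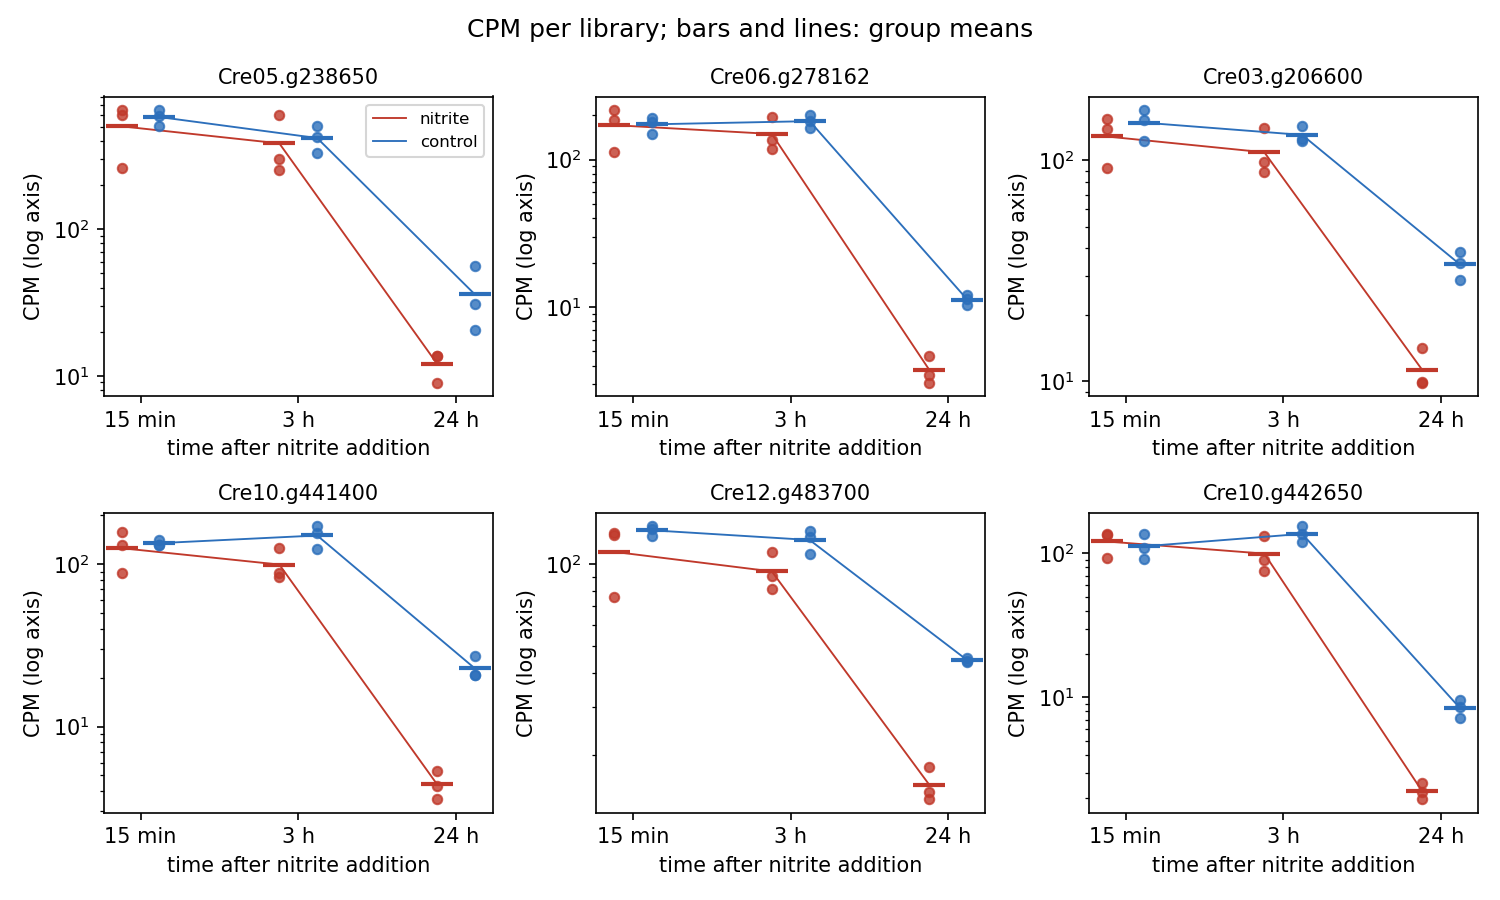
CPM in each library (points) and group means (bars, joined by lines) at 15 min, 3 h and 24 h in the nitrite and control arms for the 6 members with the most reads in control 15 min, on a log axis. In all 6 the 3 nitrite 24 h points lie below the 3 control 24 h points. At 3 h the arms overlap only through the library labelled nitrite 3 h number 2, which stood apart. The other nitrite 3 h points lie below all control 3 h points.

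The 4 members with the smallest ratio of nitrite 24 h to control 15 min were Cre05.g238650, Cre06.g278162 and Cre10.g442650, already given, and Cre02.g081050 (chromosome 2, 1084106 to 1089242). The ratios were 0.0216, 0.0243, 0.0245 and 0.0246 in that order. Cre02.g081050 had 55.7, 40.4 and 50.1 CPM at 15 min, 42.1, 48.1 and 46.1 CPM at 3 h and 1.43, 0.511 and 0.63 CPM at 24 h in the nitrite arm. In the control arm it had 57.5, 53.4 and 53.0 CPM at 15 min, 65.5, 73.8 and 63.3 CPM at 3 h and 4.70, 5.10 and 4.495 CPM at 24 h. At 3 h all its nitrite libraries were below all its control libraries. In the other 3 genes the arms overlapped at 3 h, only through the library labelled nitrite 3 h number 2. The added 0.5 CPM limits how small a ratio a gene with few reads can show, so genes with many reads are favoured in this ranking.

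Many members were close to the limit of detection in nitrite 24 h. The mean there was below 1 CPM for 25 of the 59. Over the 3 nitrite 24 h libraries together, 17 members had fewer than 10 reads, while over the 3 control 24 h libraries no member had fewer than 28 reads. Each nitrite 24 h library had 2 members with 0 reads. The median member had 29 reads over the 3 nitrite 24 h libraries and 128 reads over the 3 control 24 h libraries. Counting error alone is therefore large for the lower members in nitrite 24 h, and intervals on read counts would cover that error only.

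Genes just outside the 3 thresholds had values close to those of the members just inside. For the dark ratio, the nearest members were Cre03.g144627 at 0.394 and Cre02.g095127 at 0.392, and the nearest genes outside were Cre01.g047500 at 0.403 and Cre04.g213500 at 0.404. For the ratio of nitrite 24 h to control 24 h, the nearest members were Cre09.g400627 at 0.3998 and Cre04.g214000 at 0.398, and the nearest outside were Cre12.g540200 at 0.4002 and Cre16.g653350 at 0.401. For the control 15 min level, the nearest members were Cre03.g199250 at 5.19 CPM and Cre12.g485250 at 5.41 CPM, and the only 2 genes that met both ratios below the limit were Cre03.g179600 at 4.47 CPM and Cre17.g742250 at 4.46 CPM. Cre04.g214000 (chromosome 4, 1464537 to 1477658) was such a member, with 0.538, 0.682 and 0.315 CPM in nitrite 24 h, against 2.35, 1.87 and 1.91 CPM in control 24 h. Of the 747 genes low in the dark control, 568 had a nitrite 24 h to control 24 h ratio below 1 and 7 had a ratio of at least 2.5. The 568 include the 59 members, which are below 1 by the rule. By edgeR's log2 fold change at 24 h, 506 of the 688 remaining dark-lowered genes (73.5%) were below 0, with a median of -0.56. Of all 8229 features with at least 5 CPM in control 15 min, 50.5% were below 0. A lower level with nitrite at 24 h was thus common among the dark-lowered genes that are not members. Of the 199 genes with at least 5 CPM in control 15 min and a nitrite 24 h to control 24 h ratio of at most 0.4, the members make up 29.6%.

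The first comparison that shares no library with the choice is nitrite 3 h against control 3 h, which asks whether the members already differed between the arms at 3 h. As a set they sat lower with nitrite, but few passed the test one by one. The median log2 fold change over the 59 was -0.39 (quartiles -0.56 and -0.16, range -1.04 to 0.96), while the median over all 13564 features was -0.02. Below 0 were 50 of 59 members (84.7%), beside 58.4% of the remaining dark-lowered genes and 51.6% of all features. By edgeR's quasi-likelihood test with Benjamini-Hochberg adjustment over all features, 2 members were lower (adjusted p below 0.05) and 0 were higher. Over all features tested 0.774% were called lower and 1.95% higher, and the 2 members are 3.39% of the 59. At an unadjusted p below 0.05, 25 members (42.4%) were lower and 2 were higher, beside 10.9% lower and 11.5% higher over all features. The 3 nitrite libraries lay entirely below the 3 control libraries in 22 members (37.3%) and entirely above in 0, beside 12% and 10.8% of all features. The remaining 688 dark-lowered genes had a median of -0.10, and 10 of them were called lower and 4 higher, and in 127 (18.5%) nitrite lay entirely below control. DESeq2 called 13 members lower and 0 higher, beside 341 lower and 592 higher of the 8830 features to which it gave an adjusted p. By limma voom 2 members were lower and 0 higher, beside 138 lower and 242 higher of all 13564 features.

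The 2 genes called lower with nitrite at 3 h were Cre16.g693500 and Cre03.g183900. Cre16.g693500 (chromosome 16, 396333 to 401347) had 12.3, 17.9 and 10.6 CPM in nitrite 3 h, against 25.3, 27.8 and 29.2 CPM in control 3 h. The nitrite values were all below the control values. The log2 fold change was -0.999 (SE 0.25, n = 3 each, adjusted p = 0.0396 by edgeR). Cre03.g183900 (chromosome 3, 5320189 to 5322539) had 27.4, 26.8 and 29.4 CPM in nitrite 3 h, against 38.7, 49.9 and 47.7 CPM in control 3 h. Again no values overlapped, and the log2 fold change was -0.70 (SE 0.16, n = 3 each, adjusted p = 0.0243 by edgeR). Within the nitrite arm the log2 difference of 3 h from 15 min was -0.29 for Cre16.g693500 and 0.03 for Cre03.g183900, neither past the test, while in the control arm it was 0.53 and 0.57 in the same order, given as a description. At 24 h, Cre16.g693500 had 0.538, 0.682 and 0.63 CPM with nitrite and 6.01, 3.61 and 2.45 CPM in the control, and Cre03.g183900 had 1.79, 2.22 and 2.68 CPM with nitrite and 7.71, 8.45 and 8.45 CPM in the control.

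Both calls lay near the threshold and were lost when any of several single libraries was left out, with log2 fold changes close to those with all libraries. The count of members called lower was 0 when nitrite 3 h number 1, control 3 h number 2 or control 3 h number 3 was left out, 1 without nitrite 3 h number 2, 2 without nitrite 3 h number 3 and 9 without control 3 h number 1. The calls over all features shifted as well. For the first 3 of these settings, 25, 2 and 10 features were lower and 187, 5 and 59 higher. For the last 3, 10, 106 and 557 were lower and 30, 324 and 830 higher, in the order given. Without nitrite 3 h number 1, control 3 h number 2 and control 3 h number 3 in turn, the adjusted p by edgeR was 0.0927, 0.163 and 0.105 for Cre16.g693500 and 0.0579, 0.151 and 0.0743 for Cre03.g183900. The log2 fold changes were then -0.93, -0.98 and -0.95 for Cre16.g693500 and -0.69, -0.62 and -0.66 for Cre03.g183900. The adjusted p was 0.0849 for Cre03.g183900 without nitrite 3 h number 2, and 0.0839 for Cre16.g693500 without nitrite 3 h number 3. When only nitrite 3 h and control 3 h entered the edgeR fit, the adjusted p was 0.165 for Cre16.g693500 and 0.191 for Cre03.g183900. The log2 fold changes were then -0.98 and -0.68. Without library scaling factors the members' median was -0.06 and 0 members were called, while the median of all features then stood at 0.29.

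Without the 3 libraries that stood apart, the nitrite difference at 3 h was somewhat wider. The members' median log2 fold change was -0.44. Below 0 were 53 of 59 members (89.8%), beside 72.4% of the remaining dark-lowered genes and 50.7% of all features. By edgeR 6 members were lower and 0 higher, beside 0.729% lower and 0.963% higher of the 13712 features then tested. At an unadjusted p below 0.05, 31 members (52.5%) were lower and 1 was higher, beside 1100 lower and 1095 higher of the 13712 features. At the same threshold 180 (26.2%) of the 688 remaining dark-lowered genes were lower and 22 higher. The 2 nitrite libraries lay entirely below the 2 control libraries in 41 members (69.5%) and entirely above in 1, beside 24.3% and 22.7% of all features. In the remaining dark-lowered genes they lay entirely below in 331 of 688 (48.1%) and entirely above in 80. Because nitrite 3 h number 2 was singled out by its values, these counts do not stand on their own beside those with all libraries. Of the remaining dark-lowered genes, whose median was -0.25, edgeR called 34 of 688 lower and 1 higher. The 6 members were Cre16.g693500 (-1.20, adjusted p = 0.0105), Cre10.g441400 (-0.91, adjusted p = 0.00807), Cre16.g683793 (-0.90, adjusted p = 0.0135), Cre13.g606850 (-0.78, adjusted p = 0.0279), Cre05.g242300 (-0.76, adjusted p = 0.0322) and Cre02.g081050 (-0.65, adjusted p = 0.0492), with log2 fold changes in front of the edgeR values. Cre16.g693500 is in both lists, while Cre03.g183900 had a log2 fold change of -0.63 and an adjusted p of 0.0643 by edgeR with these libraries left out. The values of Cre10.g441400, given above, include the library labelled nitrite 3 h number 2 at 126 CPM, beside 83.7 and 88.2 CPM in the other nitrite 3 h libraries. Cre16.g683793 (chromosome 16, 3605276 to 3610897) had 33.8, 50.2 and 36.8 CPM in nitrite 3 h, against 62.5, 69.9 and 55.6 CPM in control 3 h, with no overlap whether or not the 3 libraries are counted.

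**Figure D3:**
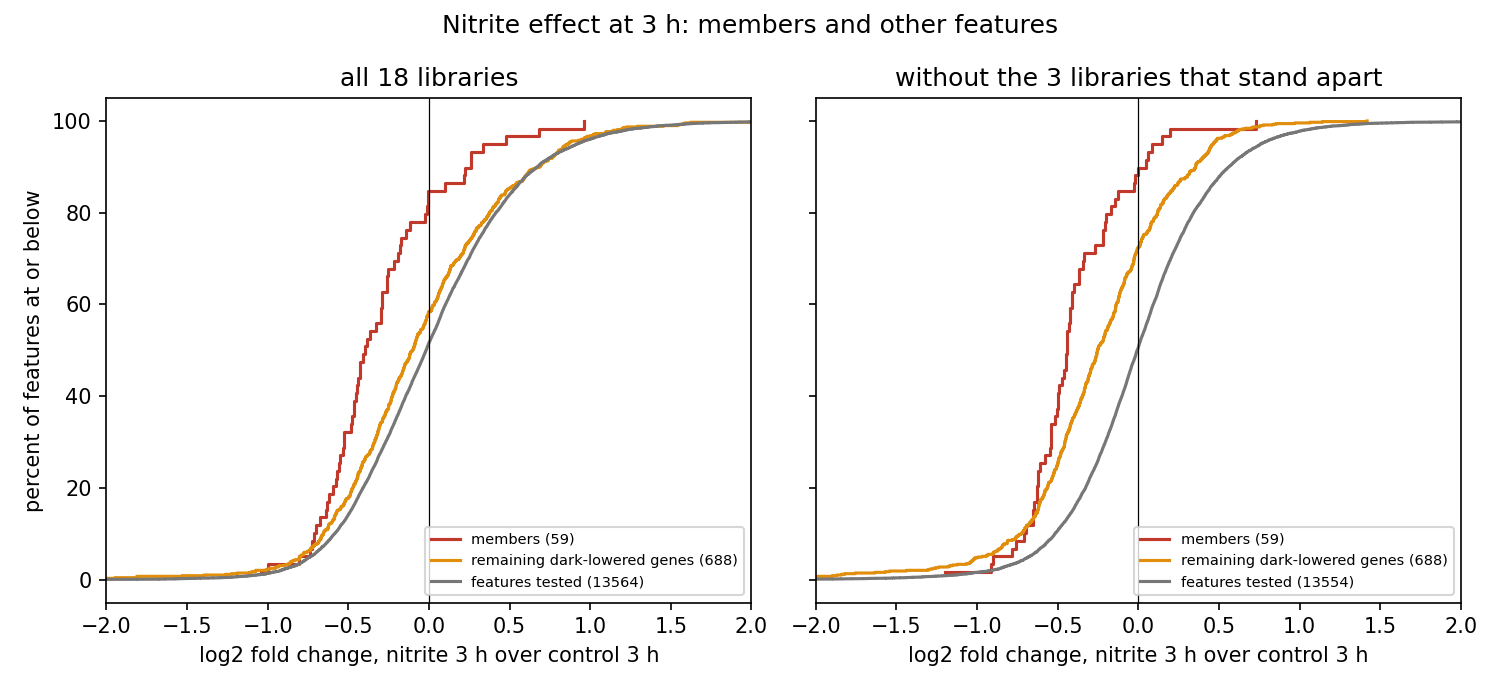
Cumulative share of features by the log2 fold change of nitrite 3 h over control 3 h for the 59 members, the 688 remaining dark-lowered genes and the features tested, with all libraries (left) and without the 3 libraries that stood apart (right, where the last curve covers the 13554 features tested both ways). The members' curve lies to the left of the others over most of its range, with medians of -0.39 and -0.44, against -0.10 and -0.25 for the remaining dark-lowered genes.

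The second comparison free of the choice is nitrite 3 h against nitrite 15 min, within the nitrite arm. With all libraries no member passed the test. edgeR called 0 lower and 0 higher, as it did over all features (0% in each direction), and DESeq2 and limma voom also called 0 members. The members' median log2 fold change was -0.10, and 0 members had an unadjusted p below 0.05 by edgeR. Below 0 were 44 of 59 members (74.6%), beside 76.5% of the remaining dark-lowered genes and 51.0% of all features. The median of the remaining dark-lowered genes was -0.18, further below 0 than that of the members. Both groups of this comparison hold a library that stood apart, the ones labelled number 2. Those libraries were singled out because they lay nearer to the other group of this very comparison, so a test without them would be circular, and the values without them are given only as a description. The members' median was then -0.24, against -0.53 for the remaining dark-lowered genes and 0.03 for all features.

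The split was widest in 3 members, which were named after their values were seen and are given with no test. Cre07.g336950 (chromosome 7, 3621954 to 3629865) had 12.9, 36.8 and 8.64 CPM in nitrite 3 h, against 36.8, 12.2 and 42.2 CPM in nitrite 15 min. Cre08.g362450 (chromosome 8, 1103176 to 1109536) had 11.8, 35.6 and 12.8 CPM in nitrite 3 h, against 32.4, 11.6 and 35.6 CPM in nitrite 15 min. Cre07.g327650 (chromosome 7, 2262876 to 2271391) had 3.32, 13.2 and 6.05 CPM in nitrite 3 h, against 10.2, 4.54 and 11.9 CPM in nitrite 15 min. In each of the 3, the second value is the one that stood apart, low at 15 min or high at 3 h. The control arm of the same genes, which received no nitrite, had 18.4, 17.1 and 14.3 CPM at 3 h, against 40.9, 36.6 and 28.1 CPM at 15 min, for Cre07.g336950. For Cre08.g362450 it had 14.7, 19.1 and 14.1 CPM at 3 h, against 31.7, 30.4 and 28.8 CPM at 15 min, and for Cre07.g327650 4.62, 3.40 and 3.46 CPM at 3 h, against 8.41, 13.7 and 12.3 CPM at 15 min. All control 3 h values of these 3 genes were below the control 15 min values.

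In Cre01.g028850 (chromosome 1, 4291227 to 4294002), also named after its values were seen, the order was the other way, with 28.3, 16.7 and 36.5 CPM in nitrite 3 h, against 18.7, 32.4 and 18.7 CPM in nitrite 15 min. Here the second value was high at 15 min and low at 3 h. Its control libraries had 21.5, 23.3 and 27.8 CPM at 15 min, 34.6, 51.4 and 82.6 CPM at 3 h and 7.58, 4.10 and 2.86 CPM at 24 h, so the control 3 h values lay above those at 15 min as well. With nitrite at 24 h it had 1.26, 1.02 and 1.10 CPM.

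**Figure D4:**
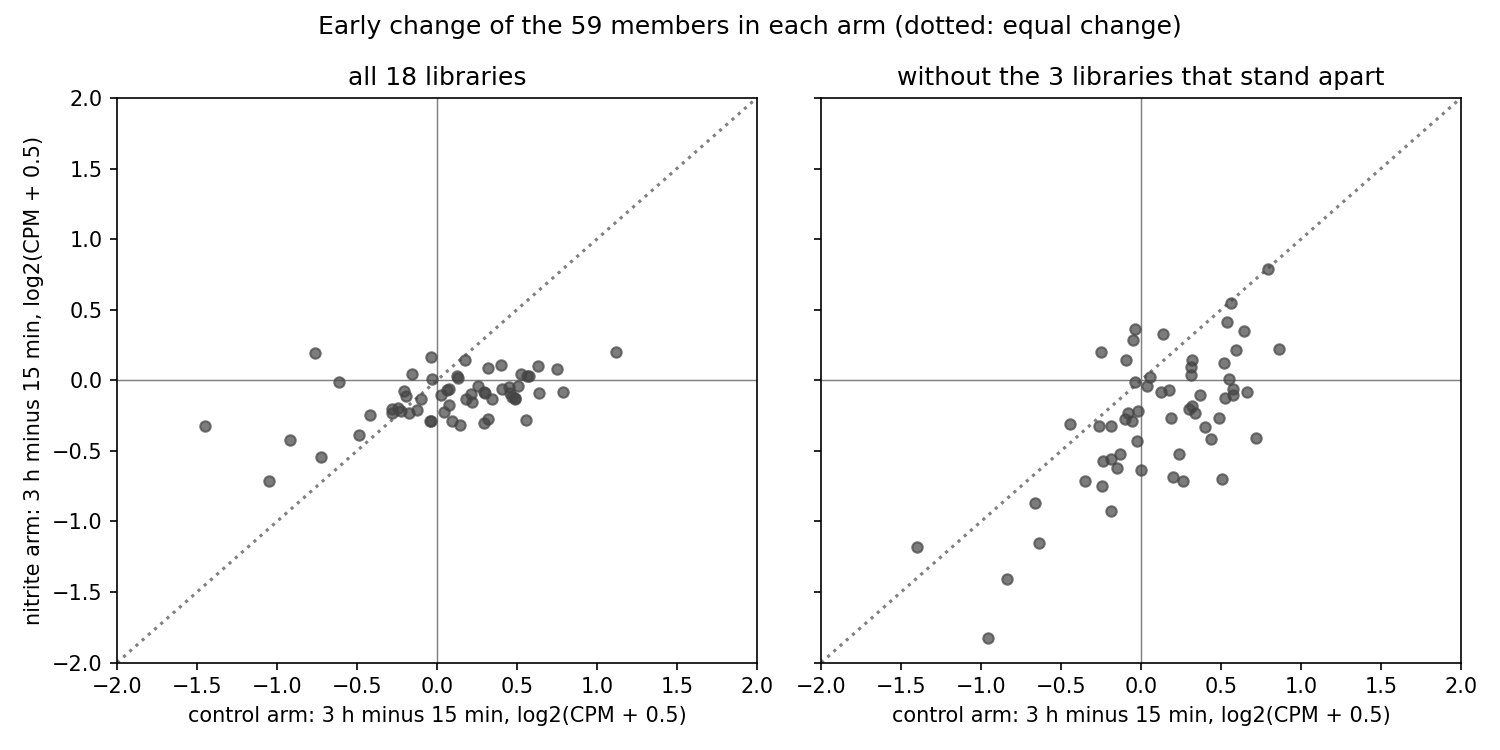
Log2 difference of 3 h from 15 min for each of the 59 members, in the nitrite arm against the control arm, with all libraries and without the 3 libraries that stood apart. Axes are differences of mean log2(CPM + 0.5), and the dotted line marks equal differences in both arms. Without the 3 libraries, as a description, 22 members were lower at 3 h in both arms, 20 were lower in the nitrite arm and higher in the control arm, 4 were the reverse of that, and 13 were higher in both.

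The timing of the members was late in both arms, and is given as a description because the 24 h groups and control 15 min chose them. In the nitrite arm the median member had covered 3.28% of its log2 difference between 24 h and 15 min by 3 h, with 15 members above their 15 min level, 44 at 0 to 25% of the way and 0 beyond. In the control arm the median was -7.64%, the minus sign meaning a level above that at 15 min. There, 37 members were above their 15 min level at 3 h, 15 had covered 0 to 25% of the way, 7 had covered 25 to 75% and 0 had covered more. Without the 3 libraries that stood apart, the medians were 6.24% in the nitrite arm and -6.42% in the control arm, and 4 members in each arm had covered 25 to 75%. In both arms the larger part of the median difference lay between 3 h and 24 h. The median log2 difference of 24 h from 3 h was -3.91 in the nitrite arm and -2.14 in the control arm, while that of control 3 h from control 15 min was 0.13 (0.14 without the 3 libraries, and -0.20 without scaling factors, where its sign turns). For the remaining dark-lowered genes the last value was -0.26 (-0.31 without the 3 libraries), and for all features 0.01. At 15 min the nitrite and control arms were close, with a median log2 difference of -0.15 with all libraries and -0.03 without the 3.

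**Figure D5:**
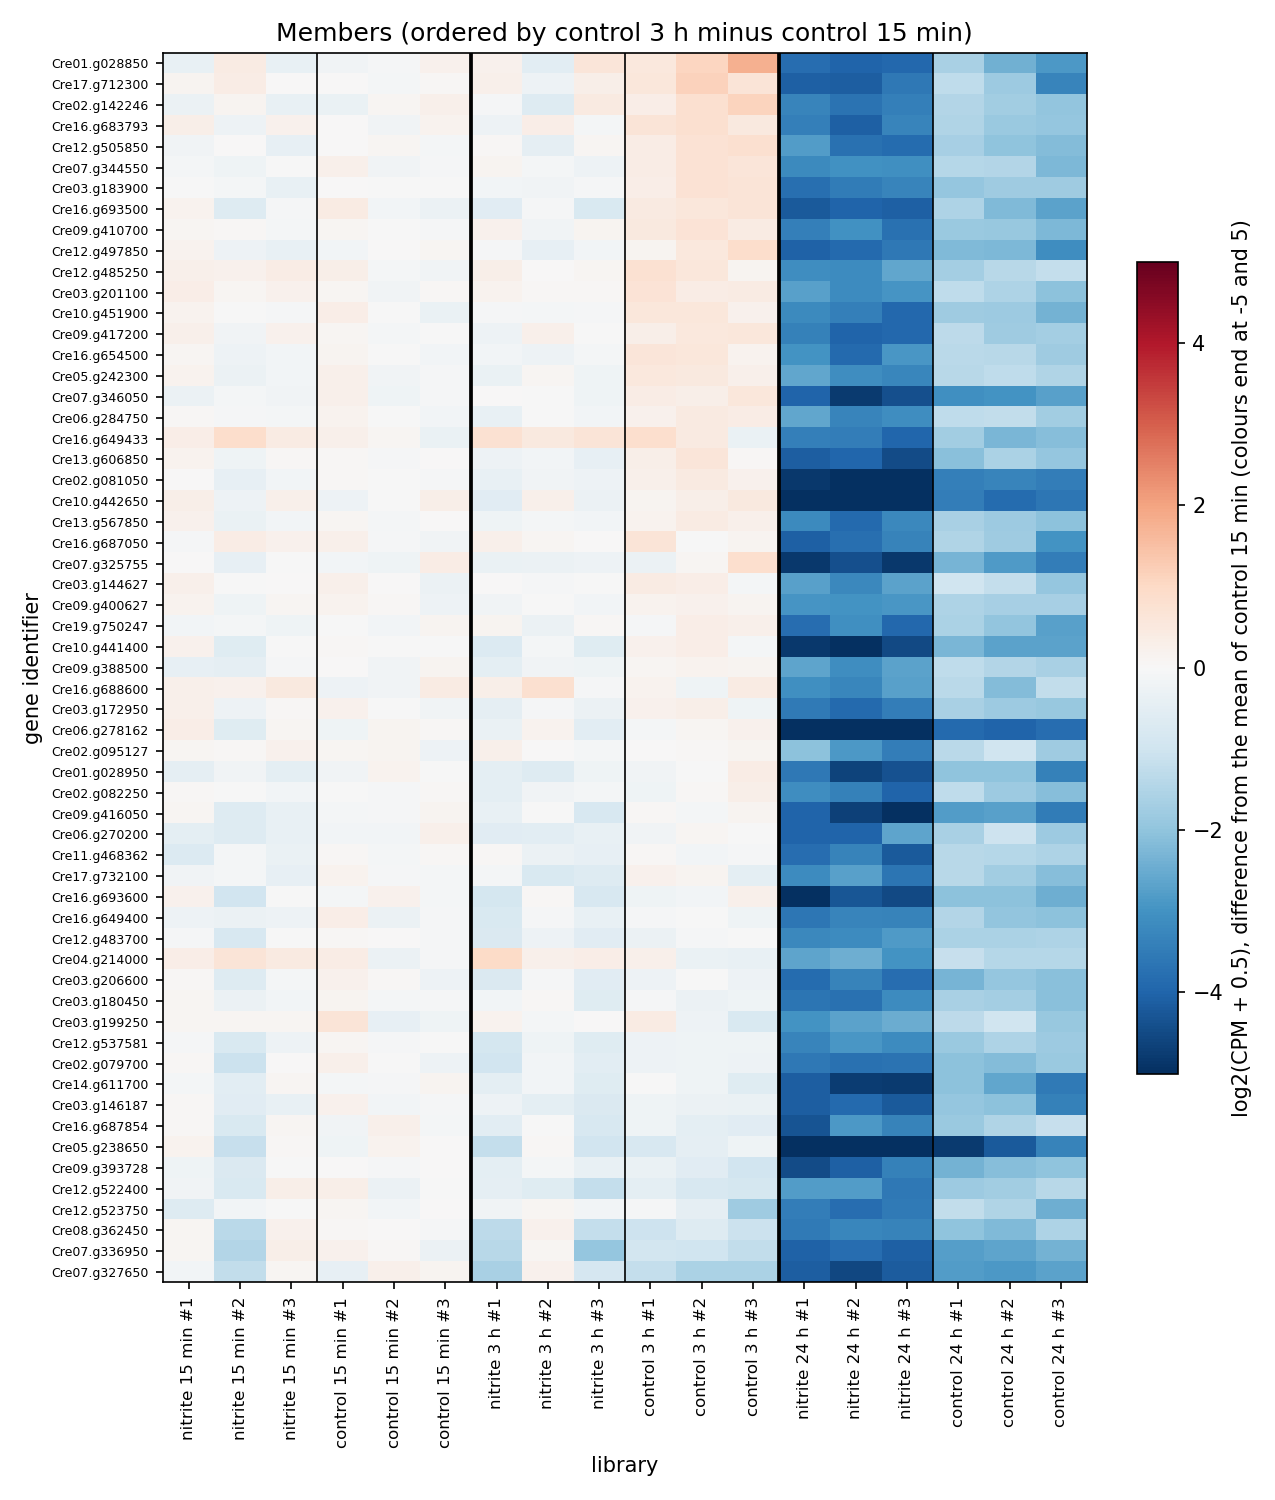
Log2 difference of each of the 59 members (rows, ordered by their difference in control 3 h) from its mean in control 15 min in each of the 18 libraries (columns). The nitrite 24 h columns are the darkest blue, the control 24 h columns are paler, and at 3 h the rows run from members above to members below their 15 min level.

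The libraries of a group differed from each other more in the members than in other genes at 24 h. The median SD of log2 CPM over the 3 libraries was 0.30 for the members in nitrite 24 h and 0.26 in control 24 h, against 0.19 and 0.19 for all 8229 genes with at least 5 CPM in control 15 min. At the earlier times the members were close to those genes, with 0.23 against 0.25 in nitrite 15 min, 0.23 against 0.25 in nitrite 3 h, 0.19 against 0.17 in control 15 min and 0.20 against 0.26 in control 3 h. The members' reads were few at 24 h, as given above, and the part of counting error in this spread was not tested.

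The 3 members with the largest SD in control 24 h all had their lowest value in the same library. Cre17.g712300 (chromosome 17, 2102544 to 2109417) had 0.179, 0.17 and 0.472 CPM in nitrite 24 h, against 4.31, 2.74 and 0.681 CPM in control 24 h, an SD of 1.04 on the log2 scale in the control. Cre01.g028950 (chromosome 1, 4297077 to 4300552) had 0.897, 0.17 and 0.315 CPM in nitrite 24 h, against 3.66, 3.61 and 1.09 CPM in control 24 h, an SD of 0.80 on the log2 scale in the control. Cre03.g146187 (chromosome 3, 742904 to 748545) had 0.359, 0.511 and 0.315 CPM in nitrite 24 h, against 3.40, 3.11 and 0.954 CPM in control 24 h, an SD of 0.79 on the log2 scale in the control. In each, control 24 h number 3 was the lowest control value. This library also had the lowest of the 3 control 24 h sums, and its median log2 difference from control 15 min was -2.08, next to -1.63 and -1.83 in the other control 24 h libraries.

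The members were spread over the genome. Chromosome 16 held 9 members among its 1018 features tested, chromosome 3 held 8 of 1293, chromosome 12 held 7 of 1347 and chromosome 15 held 0 of 153, and 1 member has no chromosome in the table. The median gene span was 5207 bases (range 1590 to 13122), beside 4687.5 bases over the features tested. Only 1 pair of members were direct neighbours, Cre16.g649400 (chromosome 16, 1042756 to 1048028) and Cre16.g649433 (chromosome 16, 1048030 to 1056135), with 1 base between them. Cre16.g649400 had 6.37, 6.25 and 6.40 CPM at 15 min, 4.40, 7.37 and 5.80 CPM at 3 h and 0.179, 0.341 and 0.315 CPM at 24 h in the nitrite arm and 9.91, 6.20 and 7.46 CPM at 15 min, 7.35, 7.51 and 6.67 CPM at 3 h and 2.48, 1.62 and 1.498 CPM at 24 h in the control arm. Cre16.g649433 had 36.9, 55.0 and 39.5 CPM at 15 min, 50.5, 41.5 and 45.7 CPM at 3 h and 2.33, 2.22 and 1.42 CPM at 24 h in the nitrite arm and 34.9, 31.6 and 23.1 CPM at 15 min, 53.2, 40.4 and 23.2 CPM at 3 h and 8.49, 5.72 and 6.40 CPM at 24 h in the control arm. At 24 h both were lower with nitrite without overlap. At 15 min the values differed in pattern, since Cre16.g649433 was higher with nitrite than in the control in all 3 libraries while the Cre16.g649400 values overlapped. 

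There were 2 further pairs within 20 kb of each other with 1 gene between them. They were Cre16.g693600 (chromosome 16, 387523 to 392944) with Cre16.g693500 (chromosome 16, 396333 to 401347), and Cre01.g028850 with Cre01.g028950 (chromosome 1, 4297077 to 4300552). Cre16.g693600 had 119, 52.3 and 102 CPM at 15 min, 55.0, 107 and 58.5 CPM at 3 h and 2.51, 4.77 and 3.94 CPM at 24 h in the nitrite arm. In the control arm it had 94.1, 119 and 94.5 CPM at 15 min, 87.1, 92.7 and 120.1 CPM at 3 h and 24.4, 24.4 and 18.5 CPM at 24 h. Its ratio of nitrite 24 h to control 24 h was the lowest of all members, 0.185. At 3 h without the 3 libraries that stood apart, its log2 fold change of nitrite over control was -0.66 (adjusted p = 0.0724 by edgeR), and that of Cre16.g693500 was -1.20. The gaps of these 2 pairs are 3388 and 3074 bases, in the order given. The strand setting of the counting is not given in the sources used here. How reads at the boundary of the direct neighbours Cre16.g649400 and Cre16.g649433 were assigned is therefore not known.

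Among the features that are not members, profiles over the 6 group means were compared with the median profile of the members. The nearest were those of Cre03.g164950 (chromosome 3, 3121126 to 3124422) and Cre06.g278500 (chromosome 6, 4841022 to 4844535). Their Pearson r was 0.9995 and 0.9992, as a description over 6 groups that share flasks. Cre03.g164950 had 3.69, 4.54 and 4.27 CPM at 15 min, 3.22, 4.12 and 4.45 CPM at 3 h and 0.717, 0.511 and 0.315 CPM at 24 h in the nitrite arm. In the control arm it had 4.91, 3.04 and 5.88 CPM at 15 min, 4.51, 5.10 and 4.94 CPM at 3 h and 2.48, 1.12 and 1.23 CPM at 24 h. Its mean of 4.61 CPM in control 15 min and both ratios, 0.413 in the dark and 0.481 with nitrite, missed the limits. Cre06.g278500 had a dark ratio of 0.4996 and a nitrite ratio of 0.529, both above the limit of 0.4, so its range over the groups was smaller than that of the members.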

How the data were processed

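Polyadenylated RNA of 18 libraries (6 groups of 3 flasks, the same 6 flasks at each time) was sequenced from stranded TruSeq libraries, per the labels' protocols. The deposited values are raw read counts per gene, made by the authors with TopHat2 2.0.13, an aligner, and HTSeq, a read counter, per the submitters' processing notes. No source used here gives the genome build, the annotation, the strand setting or the rule for reads that align in several places. The 5 summary lines per table, for reads assigned to no gene, were left out of library totals and tests. They held 0.892% to 1.67% of reads outside genes, 0.0597% to 0.439% ambiguous reads and 16.7% to 36.5% reads with several alignments.

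Features with few reads were removed with filterByExpr by group (minimum count 10), library sizes were scaled by TMM, and CPM were computed from the deposited counts. The scaling factors ran from 0.604 to 1.437. edgeR 4.0.16 in R 4.3.3 fitted 1 model with a mean per group to all 18 libraries, with 12 residual degrees of freedom, and its quasi-likelihood F test was used with Benjamini-Hochberg adjustment over all features. A gene was called where the adjusted p was below 0.05, and the SE of a log2 fold change was derived from the F statistic. The script was tested on simulated data with 200 of 13564 features changed. For nitrite 3 h against control 3 h, it called 8.96% of 1.5-fold, 47.8% of 2-fold and 93.9% of 4-fold changes. Of its calls, 7.41% were false. For nitrite 3 h against nitrite 15 min these shares were 11.9%, 46.3% and 90.9%, and 5.71% of calls were false. Most 1.5-fold changes were thus missed, so a gene without a call may still have differed. SDs are over the 3 libraries of a group, and counting intervals or floors would cover counting error only. DESeq2 1.42.0, limma 3.58.1, other scaling, filters and left-out libraries were alternatives.

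The rule for members used the 3 groups control 15 min, control 24 h and nitrite 24 h, with 0.5 CPM added to each mean. The members, the 3 libraries that stood apart and the tests were chosen with earlier results of these data known. Genes named in the text are the 6 members with the most reads, the 4 with the smallest overall ratio, members called at 3 h, the 2 nearest to each threshold on both sides, direct neighbours, the 3 with the largest SD in control 24 h and the 2 most similar non-members. Another 4 members in which the nitrite libraries labelled number 2 were out of order, the members called only without the 3 libraries and the close pairs were added after their values were seen. Lists of genes by product were planned and could not be made, because the gene table used here gives no product text, and for the same reason no sequence is shown. Of the 17741 nuclear identifiers 17738 matched the gene table. The 25 organelle features hold no member.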

Additional observations from a re-analysis of the deposited data

How the results depend on the processing

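The rule found 59 members in the main setting. It found 222 without scaling factors (59 of them shared), 153 with an offset of 0.1 CPM (59 shared) and 38 with an offset of 1 CPM (38 shared). Leaving out 1 library of the choosing groups gave 54 to 82, of which 46 to 58 were shared with the 59. The fewest, 46, were shared without control 24 h number 1. With RLE factors, no filter, a minimum count of 30 or without the 3 libraries that stood apart the number was 57, 66, 60 and 58 (56, 59, 59 and 58 shared). For nitrite 3 h against control 3 h, the count of members called lower was 2. It was 0 without scaling factors, 4 with a minimum count of 30, 6 without the 3 libraries, 0 when only these 2 groups entered the fit, 13 by DESeq2, which gave an adjusted p for 57 members, and 0 to 9 when 1 library was left out. Over all features, 3 were lower and 66 higher without scaling factors, 188 and 367 with a minimum count of 30, and 100 and 132 without the 3 libraries. They were 3 and 2 when only these 2 groups entered the fit, and 341 and 592 by DESeq2. When 1 library was left out, 2 to 557 features were lower and 5 to 830 higher. With the replicate number as a block 1 member was called lower, and over all features 48 were lower and 150 higher, beside 105 lower and 265 higher without the block. The numbers were not taken as pairs, since no label ties a number to a flask and not every same-numbered pair correlated above 0.1. Same-numbered libraries correlated at -0.00378, -0.0672 and 0.0788 between nitrite 3 h and control 3 h, and at -0.490, -0.780 and -0.412 between nitrite 3 h and nitrite 15 min, where the libraries labelled number 2 stood apart, and at 0.405, 0.0179 and 0.398 between control 3 h and control 15 min. Members called higher numbered 0, and 0 to 1 when 1 library was left out. The members' median of -0.39 became -0.0629 without scaling factors, where all features had a median of 0.29. For nitrite 3 h against nitrite 15 min, 16 members (27.1%) were lower and 1 was higher without the 3 libraries, and 0 in each direction under every other setting run. Without the 3 libraries 10.7% of all features were lower and 10.2% higher. Of the remaining dark-lowered genes 40.6% were lower and 3.49% higher in the same setting. That setting leaves out libraries because they lay nearer to the other of these groups, so its counts are circular. The cause of these shifts was not tested. Of the 614 other recomputed values, 548 kept direction and side of the threshold, 39 moved, 14 lost a call and 13 gained one. The sign turned in 38 values, none of them called, and without scaling factors it turned in 7 of the named members for nitrite 3 h against control 3 h, such as Cre05.g238650 at 0.29, against -0.12 with scaling.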
